A study of Homo sapiens with 4 samples.

Results

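The 8 genes described here make cholesterol or control how much of it is made: *HMGCS1*, *IDI1*, *FDFT1*, *SQLE*, *LSS* and *DHCR7* encode enzymes, and *INSIG1* and *SREBF2* belong to the sterol-sensing SREBP system. They were taken by gene name from the deposited table of RNA synthesis, and 7 of the 8 are among its 10147 genes. *SREBF2* is not listed and was not analysed here. RNA synthesis was measured by TT-seq, which sequences RNA made during a short pulse of the uridine analog 4-thiouridine (4sU), here 5 min at 500 µM. The cells were K562, a human chronic myelogenous leukemia line, edited so that IWS1, a factor bound to elongating RNA polymerase II, carries an N-terminal dTAG. Control and dIWS1 cells carry the same tag and differ in treatment: solvent (DMSO) for control, and 500 nM dTAG7, a ligand that triggers degradation of the tagged protein, for dIWS1. There were 2 libraries per group after 1 h, so the comparison asks how synthesis of these genes stands shortly after IWS1 is lost. All values are from edited cells of 1 line, and a clone-specific background was not tested.

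Cholesterol is built from acetyl-CoA. The mevalonate pathway first makes isoprenoid units, which are joined to squalene, and squalene is oxidized, closed into lanosterol and trimmed to cholesterol. The genes are controlled together by SREBP-2, the product of *SREBF2*, a transcription factor held in the endoplasmic reticulum by SCAP and INSIG proteins while sterols are plentiful. When sterols fall, SCAP carries SREBP to the Golgi, proteases release its active part, and it binds sterol regulatory elements (SREs) in promoters, usually beside binding sites for NF-Y, which recognizes CCAAT boxes, and for Sp1.

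The promoter stretches below hold matches to the CCAAT box and, in *SREBF2* only, to the core of an SRE. They come from RefSeq windows of 250 bases before to 50 after an annotated start (GRCh38.p14), which were present for 6 of the 8 genes. Capitals mark a CCAAT box, read as CCAAT or on the other strand as ATTGG, or in 1 stretch the SRE core TCACNCCAC. Stretches that overlapped an annotated exon of the same gene were left out.
HMGCS1, chr5:43313551-43313579, minus strand: agtttccttttgATTGGtagaagccggac
INSIG1, chr7:155297696-155297724, plus strand: cgccggcctcccATTGGttgcggccgcct
IDI1, chr10:1049318-1049346, minus strand: gggcgctttcggATTGGgagggcttcctc
IDI1, chr10:1049220-1049248, minus strand: atcgaaagcgtgATTGGctggcggcgtct
LSS, chr21:46228908-46228936, minus strand: cgcggcgctctgATTGGttgcgtgggcgt
DHCR7, chr11:71448471-71448499, minus strand: caggctcctcgaCCAATcacggggcgcgg
SREBF2 (SRE core), chr22:41832962-41832990, plus strand: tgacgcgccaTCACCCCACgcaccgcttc
SREBF2, chr22:41832987-41833015, plus strand: cttcgctcgcccATTGGctgagatgagcc
The marked boxes begin 155 bases before the start in *HMGCS1*, 170 in *INSIG1*, 215 and 117 in *IDI1*, 150 in *LSS* and 94 in *DHCR7*. In *SREBF2* the SRE core begins 133 bases and the CCAAT box 106 bases before the start. For *IDI1* and *DHCR7* the start used here lies inside the gene span given below. The *IDI1* window at the outer end of its span (chr10:1056655-1056954) held Sp1 boxes but no CCAAT box. A CCAAT box on either strand was present in a window of all 6 genes, and in 39.7% of the 27305 genes with a window. The Sp1 box GGGCGG was likewise found in 6 of 6, against 48.3% of genes. The SRE core occurred in 1 of 6, against 1.39% of genes. These matches describe letters in a window and do not show binding. Only exact matches were counted, so a missing match does not show that a gene lacks such a site.

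The deposited table gives 1 mean per gene over 4 library columns, from which the reads of each column could be worked back. These were 1 column for control and 2 for dIWS1, because the control values enter each mean as 2 identical columns. Control was therefore used as 1 sample. Replicate spread could be seen only within dIWS1, and the tests assume that control varies in the same way. With reads scaled by the spike-ins, this spread was pooled over genes as if they were independent, at 10136 degrees of freedom. The dIWS1 columns differ by an offset that genes share. The p-values, 95% intervals and numbers of calls on that scale are therefore too sure. The columns held 29832118 reads in genes for control, 20684301 for dIWS1 column 1 and 20886697 for dIWS1 column 2. *IWS1* itself had 3684, 2334 and 2427 reads, a log2 change of −0.55 ± 0.15 (SE, adjusted p = 0.00078), which does not check the depletion because dTAG7 acts on the protein. Of the erythroid and K562 markers, 8 of 8 were listed, against 1 of 3 T cell, 0 of 3 B cell, 1 of 3 monocyte and 0 of 3 hepatocyte markers.

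In cells depleted of IWS1, the 7 genes split into 3 whose synthesis fell, *LSS*, *SQLE* and *DHCR7*, and 4 that were not called, *HMGCS1*, *FDFT1*, *IDI1* and *INSIG1*. None was called higher, nor was any higher at an unadjusted p under 0.05 or called higher in the limma trend fits. Synthesis fell at most genes in the same libraries: on the spike-in scale 64.5% of 10136 genes were called lower and 0.109% higher (limma voom, Benjamini-Hochberg adjusted p under 0.05). The share called lower among the 7 was thus below the background share, with no test of that difference. The median log2 change (dIWS1 over control) was −0.17 over the 7 genes, ranging from −0.64 to 0.09, and −0.43 over all genes (quartiles −0.60 and −0.26). The size of this gap differed between the dIWS1 columns: the median of the 7 was −0.34 against −0.47 over all genes with dIWS1 column 1 alone, and −0.06 against −0.37 with column 2 alone. A log2 change above −0.2 was seen in 4 of the 7 and in 16.8% of all genes. With column 1 alone these were 2 of the 7 and 11.3%, and with column 2 alone 4 of the 7 and 26.2%. In the fit of both columns the bound of −0.2 separates the 4 genes not called from the 3 called lower. These counts thus describe the same values again and add no separate support.

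**Figure D1:**
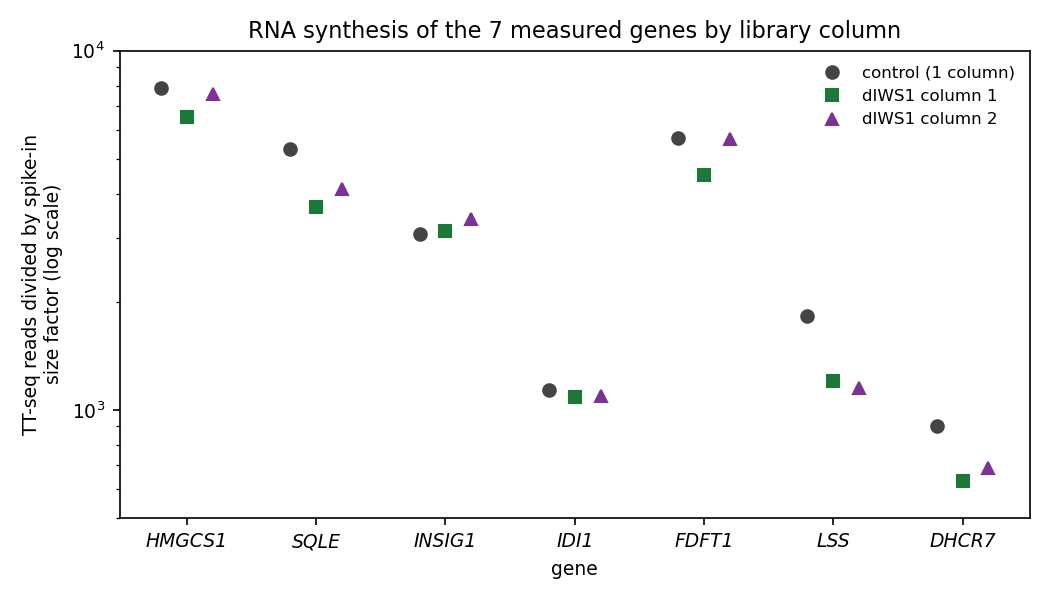
Normalized TT-seq reads (reads divided by the spike-in size factor, log axis) of each of the 7 genes, with 1 point per library column: control (circle), dIWS1 column 1 (square) and dIWS1 column 2 (triangle). For *LSS*, *SQLE* and *DHCR7* both dIWS1 points lie clearly below the control point, while for *INSIG1* both lie above it (3141 and 3408 against 3082).

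The levels of the genes differed more than their changes. Normalized reads per kb of RefSeq gene span in the control column were 304 for *HMGCS1*, 249 for *INSIG1*, 223 for *SQLE*, 131 for *FDFT1*, 64.6 for *IDI1*, 45.4 for *LSS* and 41.5 for *DHCR7*. The order changed little with depletion. In dIWS1, *HMGCS1* (252 and 292 per kb) and *INSIG1* (254 and 276) overlapped, as did *LSS* (29.9 and 28.5) and *DHCR7* (29.1 and 31.6). *SQLE* (155 and 173), *FDFT1* (103 and 130) and *IDI1* (61.7 and 62.1) stood apart from their neighbors in both columns.

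*HMGCS1* encodes the cytosolic HMG-CoA synthase, which condenses acetyl-CoA with acetoacetyl-CoA at the entry to the mevalonate pathway. The gene (ENSG00000112972.15, chr5:43287470-43313412, minus strand) has 11 exons in its canonical transcript. In control it had 7967 reads, and in the dIWS1 columns 6493 and 6974. Scaled by the spike-ins these became 7891 for control against 6537 and 7585, a dIWS1 mean of 7061 ± 741 (SD, n = 2). Both dIWS1 columns lay below control, but by unequal amounts. The log2 ratio to control was −0.27 in column 1 (95% counting interval −0.32 to −0.22) and −0.06 in column 2 (−0.10 to −0.01). In the fit the change was −0.16 ± 0.15 (SE, adjusted p = 0.308), with a 95% interval of −0.46 to 0.13. This interval carries the offset that genes share, so it does not compare *HMGCS1* with the median gene. The recentred fit described below makes that comparison.

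*IDI1* encodes isopentenyl diphosphate isomerase, which interconverts the isoprenoid building blocks of the pathway. It lies at chr10:1039152-1056704 on the minus strand (ENSG00000067064.13, 5 exons). Its 1145 reads in control compared with 1075 and 1002 in the dIWS1 columns, which scaled to 1134, 1082 and 1090. The dIWS1 columns nearly coincided (mean 1086 ± 5.26, SD, n = 2) and sat just under control. The log2 ratios of −0.07 and −0.06 were both within counting error of no change (intervals −0.19 to 0.05 and −0.18 to 0.06). The fitted change was −0.06 ± 0.14 (SE, adjusted p = 0.677), at 95.8% of control, with a 95% interval of −0.33 to 0.20. In all, 94.1% of genes had a lower log2 change than *IDI1*.

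*FDFT1* encodes squalene synthase, the first enzyme committed to sterols, and was the longest of the 7 genes (chr8:11795582-11839298, plus strand, ENSG00000079459.14, 8 exons). Its reads numbered 5763 in control and 4480 and 5216 in dIWS1 columns 1 and 2, or 5708, 4511 and 5673 after scaling. The dIWS1 columns disagreed: column 1 lay well below control and column 2 nearly on it. Their log2 ratios were −0.34 (−0.40 to −0.28) and −0.01 (−0.06 to 0.05). This gap of −0.33 between the columns was the widest among the 7 genes, against a median gap of −0.12 and an SD of 0.13 over the 8900 genes with a mean over 100. The fitted change of −0.17 ± 0.15 (SE, adjusted p = 0.284) was not called, with a 95% interval of −0.47 to 0.12.

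*SQLE* encodes squalene epoxidase, a rate-limiting oxygen-requiring step (chr8:124998505-125022283, plus strand, ENSG00000104549.12, 11 exons). There were 5360 reads in control, 3656 in the first dIWS1 column and 3779 in the other. The scaled values were 5309 for control against 3681 and 4110 (dIWS1 mean 3896 ± 303, SD, n = 2), and both dIWS1 columns were below control. The log2 ratios were −0.53 (−0.59 to −0.47) and −0.37 (−0.43 to −0.31). *SQLE* synthesis fell, with a log2 change of −0.45 ± 0.15 (SE, adjusted p = 0.00630), to 73.3% of control. This placed it near the middle of all genes, with 46.5% of them lower.

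*LSS* encodes lanosterol synthase, which closes the sterol ring system (chr21:46188446-46228774, minus strand, ENSG00000160285.15, 22 exons). Control had 1848 reads, against 1198 and 1058 in the dIWS1 columns. After scaling, 1830 in control stood against 1206 and 1151 (dIWS1 mean 1178 ± 39.2, SD, n = 2). *LSS* had the lowest ratios of the 7 genes in both columns, −0.60 (−0.71 to −0.50) and −0.67 (−0.78 to −0.56). It fell by 0.64 ± 0.14 on the log2 scale (SE, adjusted p = 4.29e-05), to 64.4% of control, with 21.2% of genes lower still.

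*DHCR7* encodes 7-dehydrocholesterol reductase, which makes cholesterol in the last step of one branch (chr11:71427287-71449043, minus strand, ENSG00000172893.18, 9 exons). It had the fewest reads of the 7 genes: 912 in control against 629 and 632 in the dIWS1 columns. The scaled values of 903, 633 and 687 again put both dIWS1 columns below control (dIWS1 mean 660 ± 38.2, SD, n = 2). With log2 ratios of −0.51 (−0.66 to −0.37) and −0.39 (−0.54 to −0.25), *DHCR7* fell by 0.45 ± 0.13 (SE, adjusted p = 0.00158), to 73.1% of control. Its change was close to that of *SQLE*, and 45.9% of genes lay lower.

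*INSIG1* encodes the sterol-responsive anchor that keeps SCAP and SREBP in the endoplasmic reticulum, and is itself an SREBP target (chr7:155297878-155310235, plus strand, ENSG00000186480.13, 6 exons). It was the shortest of the 7 genes and the only one of them with both dIWS1 columns above control. The reads were 3112 in control and 3120 and 3133 in dIWS1, nearly equal numbers from libraries of unequal depth. The scaled values were 3082 in control against 3141 and 3408 (dIWS1 mean 3274 ± 188, SD, n = 2). The log2 ratios were 0.03 (−0.04 to 0.10) and 0.14 (0.07 to 0.22). Both ratios were above 0 in 192 genes, 1.89% of those tested. The fitted change of 0.09 ± 0.15 (SE, adjusted p = 0.600) was not called on the spike-in scale, with a 95% interval of −0.21 to 0.38 and 98.2% of genes lower.

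**Figure D2:**
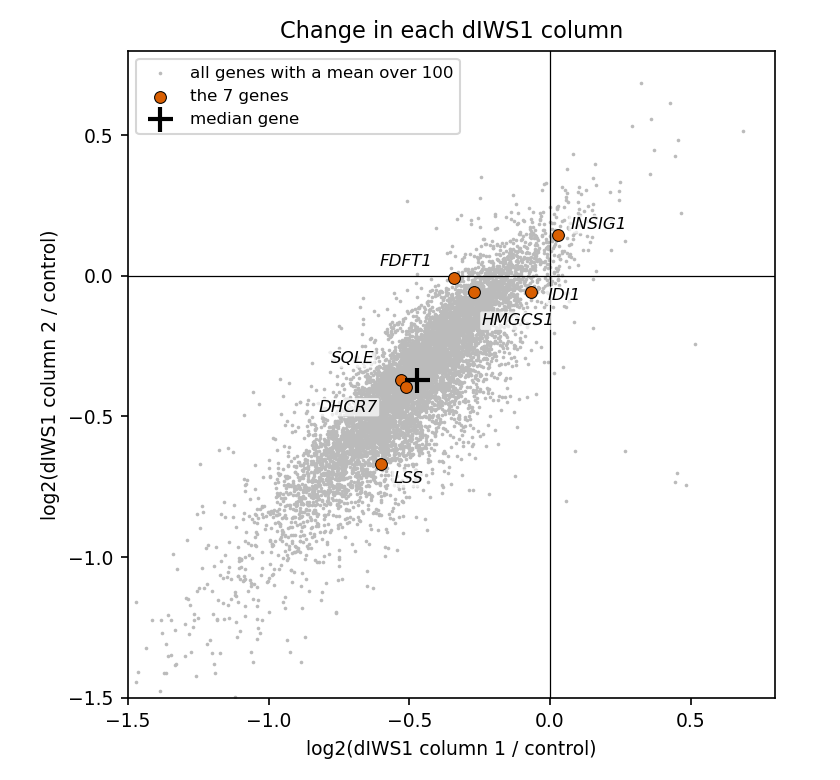
Log2 ratio to the control column in dIWS1 column 1 (horizontal axis) and dIWS1 column 2 (vertical axis) for genes with a mean over 100 (grey), the 7 genes (orange) and the median gene (cross at −0.47 and −0.37). *SQLE* and *DHCR7* sit at the median gene, *LSS* below it, and *HMGCS1*, *FDFT1*, *IDI1* and *INSIG1* toward the upper right. 31 of the 8900 genes lie outside the axes, and both axes share the 1 control column.

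Set against the median gene in place of the spike-ins, which shifts column 1 by −0.47 and column 2 by −0.36, the same 7 genes took a different place around 0. On this recentred scale 6.26% of all genes were called lower and 4.38% higher. *INSIG1* was called higher by 0.50 ± 0.054 (SE, adjusted p = 0.0362, 95% interval 0.36 to 0.64). *IDI1* at 0.35 ± 0.073 (adjusted p = 0.0505) and *HMGCS1* at 0.25 ± 0.065 (adjusted p = 0.0706) were not called, and *FDFT1* was at 0.24 ± 0.10 (adjusted p = 0.171). The 95% intervals, not adjusted for the number of genes, were 0.16 to 0.54 for *IDI1*, 0.08 to 0.42 for *HMGCS1* and −0.03 to 0.51 for *FDFT1*. *SQLE* (−0.03 ± 0.055, adjusted p = 0.689) and *DHCR7* (−0.04 ± 0.068, adjusted p = 0.715) lay at the median gene. *LSS* was at −0.22 ± 0.088 (adjusted p = 0.153). The 3 falls on the spike-in scale were therefore not called relative to other genes. On the spike-in scale, where the offset between the dIWS1 columns enters the spread of every gene, the SEs were 0.13 to 0.15. After recentring they were 0.054 to 0.10. The tests used 10136 degrees of freedom on the spike-in scale and 4.68 after recentring.

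Genes of like length or depth gave a closer background. Of the 2887 genes spanning 10 to 30 kb, where *HMGCS1*, *SQLE*, *INSIG1*, *IDI1* and *DHCR7* fall, 62.7% were called lower with a median log2 change of −0.38. Of the 2233 genes spanning 30 to 65 kb, with *FDFT1* and *LSS*, 57.6% were called lower with a median of −0.35. The 4649 genes with means in the range of the 7 had a median of −0.37 and 61.8% called lower. By the pair of column ratios, the genes nearest to the medians of the 7 were *CHCHD7* (−0.33 and −0.06), *CLDN12* (−0.33 and −0.06) and *LMNA* (−0.34 and −0.05), at distances of 0.00779 to 0.00969 in log2 units.

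The other enzymes of the pathway were divided as well. Of 21 cholesterol synthesis enzymes 20 were listed, 10 were called lower and none higher (none at an unadjusted p under 0.05 either), with a median log2 change of −0.27 on the spike-in scale and 0.14 relative to the median gene, a change of sign. Outside the 7 genes, 7 of 14 were called lower. These included *FDPS*, which makes farnesyl diphosphate (−0.61, adjusted p = 5.66e-05), the mevalonate enzymes *MVK* (−0.40, adjusted p = 0.00465) and *MVD* (−0.49, adjusted p = 0.00105), and *PMVK*, phosphomevalonate kinase (−0.90, adjusted p = 0.000219), which rested on only 100, 41 and 63 reads. Enzymes of methyl group removal were divided too. *CYP51A1* at 0.04 (adjusted p = 0.806), *MSMO1* at 0.02 (adjusted p = 0.885) and *NSDHL* at −0.22 (adjusted p = 0.165) were not called. *HSD17B7* was called lower at −0.35 (adjusted p = 0.0140). Relative to the median gene, *CYP51A1* (0.45, adjusted p = 0.0405) and *MSMO1* (0.44, adjusted p = 0.0370) were called higher, as were 4.38% of all genes. On that scale *NSDHL* (0.20, adjusted p = 0.127) and *HSD17B7* (0.07, adjusted p = 0.569) were not called. 14 of the 20 enzymes lay above the median gene.

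**Figure D3:**
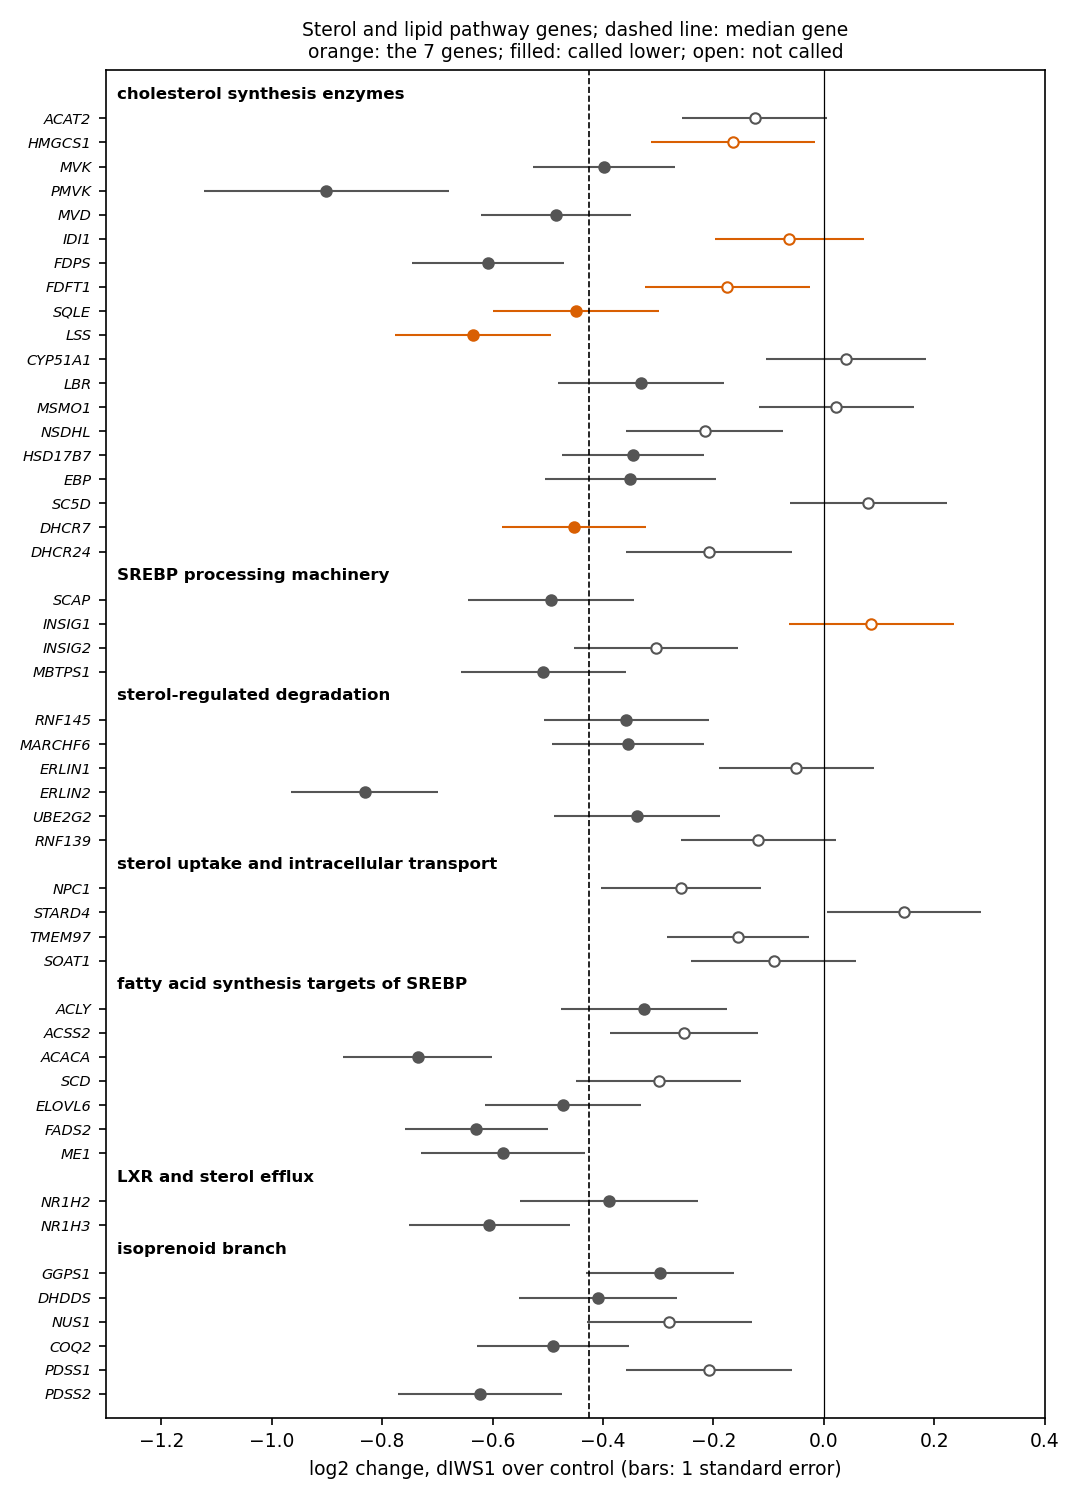
Log2 change (dIWS1 over control, spike-in scale) of 48 of the 51 listed sterol and lipid pathway genes by group, with bars of 1 SE, filled points for genes called lower and open points for genes not called. No plotted gene was called higher. *INSIG1*, *STARD4*, *SC5D*, *CYP51A1* and *MSMO1* are the genes right of 0, and the dashed line marks the median of all genes at −0.43.

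Among the SREBP machinery 4 of 7 genes were listed, and 2 were called lower. *SCAP*, the escort of SREBP, was at −0.49 (adjusted p = 0.00260), and *MBTPS1*, the site-1 protease, at −0.51 (adjusted p = 0.00191). *INSIG2*, the second anchor, was at −0.30 (adjusted p = 0.0618), and its difference from *INSIG1* was not tested. Of the 8 genes for sterol-regulated protein degradation, 6 (75.0%) were called lower, against 64.5% of all genes. This count was 2 in both limma trend fits and 3 with robust empirical Bayes. *ERLIN2* (−0.83, adjusted p = 1.52e-08) was called in all of these fits, while the ubiquitin ligase *RNF145* (−0.36, adjusted p = 0.0284) was not called in limma trend (adjusted p = 0.0664 and 0.0730) or with robust empirical Bayes (adjusted p = 0.0605). For uptake and transport 4 of 9 were listed and none was called in either direction, nor passed an unadjusted p under 0.05 in limma voom. Their median was −0.12, and it was −0.23 with dIWS1 column 1 alone and −0.01 with column 2 alone. *STARD4*, a sterol carrier and SREBP target, had 1436, 1525 and 1481 reads, a change of 0.15 (adjusted p = 0.342) on the spike-in scale and 0.56 (adjusted p = 0.0362, called higher) relative to the median gene.

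Of the 9 fatty acid genes that SREBP also controls, 7 were listed. Of these, 5 (71.4%) were called lower, against 64.5% of all genes, with a median of −0.47. *ACACA*, acetyl-CoA carboxylase, was at −0.74 (adjusted p = 7.41e-07) and was the only gene of all the lists called lower relative to the median gene (−0.32, adjusted p = 0.0402). *FADS2*, a desaturase, was at −0.63 (adjusted p = 1.05e-05), whereas *SCD*, the stearoyl-CoA desaturase, was not called at −0.30 (adjusted p = 0.0665). In the isoprenoid branch 4 of 6 genes (66.7%) were called lower (median −0.35), which is near the share over all genes. Among them *PDSS2*, a subunit for the ubiquinone side chain, was at −0.62 (adjusted p = 0.000130). Of 4 LXR and efflux genes 2 were listed, *NR1H3* (−0.61) and *NR1H2* (−0.39), and both were called lower, as were 64.5% of all genes. In the limma trend and robust fits 1 of them was called lower. Over all lists 29 of 51 genes, 56.9%, were called lower, against 64.5% of all genes.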

How the data were processed

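TT-seq libraries of dTAG-IWS1 K562 cells (2 control, 2 dIWS1) were analysed from the 1 deposited table. Per the labels and the study's methods, the authors aligned reads with STAR 2.6.0 to GRCh38 with spike-ins, kept unique alignments, counted them per RefSeq gene by strand, excluded overlapping genes, kept genes over 10 reads per kb and ran DESeq2 with spike-in size factors. The deposited mean per gene is a signal value, the mean of counts divided by size factors. The other deposited columns hold the authors' own comparison: a log2 fold change, its error, a statistic and p-values. None of these is printed. The log2 column, in which the authors' direction was read from the study's legends as dIWS1 over control, served to assign the recovered columns to a group and to choose among several splits for 82 genes, none of them among the 7 described.

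The reads of each column were worked back from the deposited means, which are built of integer reads times 3 steps (0.495, 0.252 and 0.272). Of 10136 genes with a mean above 0, 10054 (99.2%) split in 1 way. The recovery and the fit were tested on simulated data. The dIWS1 columns carry no replicate number. Reads were fitted with limma voom (limma 3.58.1, R 4.3.3), with library sizes proportional to the size factors (1.01, 0.993 and 0.919) and Benjamini-Hochberg adjustment over all 10136 genes (adjusted p under 0.05). Because 1 control column carries every comparison, an error in it would move all genes together. A second fit was recentred on the median gene. Log2 ratios per column are of normalized reads, with 95% normal intervals that cover counting error only. Alternatives were library scaling, weight of the control column, limma trend with pseudocounts of 0.5 and 5, minimum means of 10 and 100, robust empirical Bayes, thresholds of 0.01 and 0.1, and each dIWS1 column alone. Named genes were the 8 genes, genes of 7 pathway lists, *IWS1*, and the 3 genes nearest by Euclidean distance of the ratio pair at a mean of at least 100. The genes and lists were chosen with earlier results of these data known. Spans, promoters and names came from RefSeq GRCh38.p14, and exons and identifiers from GENCODE. The values of 3 further pathway genes are not reported here, though the list counts include them.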

Additional observations from a re-analysis of the deposited data

How the results depend on the processing

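No paired analysis was possible because the recovered columns carry no replicate numbers and the control is 1 column. On the spike-in scale the calls of *SQLE*, *LSS* and *DHCR7* and the missing calls of the other 4 genes were the same under every alternative test, filter and weight of the control column. With either dIWS1 column alone, a value with no test, the log2 change was −0.27 to −0.06 for *HMGCS1*, −0.53 to −0.37 for *SQLE*, 0.03 to 0.14 for *INSIG1*, −0.07 to −0.06 for *IDI1*, −0.34 to −0.01 for *FDFT1*, −0.67 to −0.60 for *LSS* and −0.51 to −0.39 for *DHCR7*.

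The calls depended on the library scaling. Recentred on the median gene and with total reads in genes as library size, respectively, the log2 change was 0.25 and 0.28 for *HMGCS1*, −0.034 and −0.0067 for *SQLE*, 0.50 and 0.53 for *INSIG1*, 0.35 and 0.38 for *IDI1*, 0.24 and 0.27 for *FDFT1*, −0.22 and −0.19 for *LSS*, and −0.039 and −0.011 for *DHCR7*. With total reads, adjusted p was 0.0174 for *HMGCS1*, 0.0159 for *IDI1* and 0.00455 for *INSIG1*. In the same order, all genes gave 635 and 1062 lower, 444 and 1471 higher, and medians of −0.011 and 0.016. Cholesterol enzymes gave 0 and 0 lower, 2 and 9 higher, medians 0.14 and 0.17. SREBP machinery gave 0 and 0 lower, 1 and 1 higher, medians 0.015 and 0.043. Degradation genes gave 0 and 0 lower, 2 higher with total reads, medians 0.058 and 0.086. Uptake genes gave 1 and 2 higher, medians 0.29 and 0.32. Fatty acid genes gave 1 and 1 lower, medians −0.058 and −0.031. LXR genes gave 0 and 0 lower, medians −0.083 and −0.055. Isoprenoid genes gave 0 and 0 lower, 1 higher with total reads, medians 0.060 and 0.088.

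Genes called higher on the spike-in scale numbered 61 with the control entered 2 times, 26 and 17 with limma trend at pseudocounts 0.5 and 5, 6 at adjusted p under 0.01 and 23 at 0.1, against 11. Degradation genes called lower were 2 under both limma trend fits, 3 with robust empirical Bayes and 2 at adjusted p under 0.01. LXR genes called lower were 1 under each of these, with a median of −0.49 at pseudocount 5. With the control entered 2 times, 1 uptake gene was called lower and 1 higher. The causes were not tested. The offset between the dIWS1 columns and the use of 1 control column limit precision on the spike-in scale. There the 95% intervals of the 4 genes not called reached from −0.47 to 0.38.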
